A study of Mus musculus with 64 samples.

Results

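Microglia, the resident macrophages of the brain, were compared between RISP KO and RISP WT mice that were naive and adult. RISP is the Rieske iron-sulphur protein, encoded by Uqcrfs1, and the comparison takes the libraries labelled KO naive adult replicates 1 to 5 and WT naive adult replicates 1 to 5, which are 10 of the 64 libraries of the series. The labels give genotype, treatment and age group, and state neither sex nor the age in weeks nor the Cre driver, nor whether each replicate is a separate animal, so p-values measure the spread between these libraries. Viable cells were sorted from whole brain by CD11b and CD45.2, and a stranded kit made total RNA libraries from them. The deposited table also counts the transgenes CreERT2, a tamoxifen-dependent recombinase, and tdTomato, a red reporter, and both were present in every KO and every WT library. Both genotypes thus carried the recombinase and the reporter. KO replicate 1 had been singled out in advance for a weak stress response. The main counts and part of the gene results are therefore given with and without it. The fit without it is not an independent test of stress genes.

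Complex III of the mitochondrial respiratory chain passes electrons from ubiquinol to cytochrome c, and RISP carries the iron-sulphur cluster that takes the first electron. When respiration fails, mammalian cells commonly switch on the integrated stress response, in which ATF4 and related factors raise genes for amino acid uptake and synthesis, serine and folate metabolism in mitochondria and the charging of tRNAs. They also rely more on glycolysis, the cytosolic route from glucose to lactate. In the resting brain, microglia express a homeostatic set of genes such as P2ry12 and Tmem119, while border-associated macrophages and monocytes share the CD11b and CD45 surface proteins used for the sort.

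Total counts per library ran from 11 to 15.1 M in KO and from 12.8 to 15.6 M in WT. The share of counts on mitochondrial genes was 2.05 to 4.09% in KO libraries and 1.5 to 2.17% in WT libraries. KO replicate 2 had 0 counts on the Y-linked genes summed, and the other 9 libraries all had such counts. Xist, a transcript of female cells, had 181 CPM in KO replicate 2 and 0.642 to 14.6 CPM in the other 9. KO replicate 2 thus read as female, and sex read from these genes was not balanced between KO and WT. Homeostatic microglia markers summed to between 60900 and 77400 CPM (counts scaled to library size) in KO libraries and between 74700 and 87300 CPM in WT libraries, and none of the 19 was at 0. On the first principal component, which held 30.2% of the variance of the 1000 most variable genes, KO replicate 1 lay at -19.6, inside the WT range of -34.9 to 17.6, and KO replicates 2, 4 and 5 at 26.2, 27.7 and 33.3. KO replicate 3 lay at -2.94. KO replicate 1 correlated across genes at 0.961 on average with the WT libraries and at 0.946 with the other KO libraries.

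Uqcrfs1 (ENSMUSG00000038462, GRCm38 chr13:30540308-30545362, minus strand) was low in all KO libraries, KO replicate 1 included. It had 9.59, 5.75, 10.2, 7.57 and 8.38 CPM in KO replicates 1 to 5, against 48.7, 47.6, 43.8, 38.7 and 37.6 CPM in WT replicates 1 to 5. Every KO library was below every WT library, and the log2 fold change was -2.38 ± 0.161 (SE, n = 5 and 5, edgeR quasi-likelihood test with Benjamini-Hochberg adjusted p = 0.000123). Without KO replicate 1 the log2 fold change was -2.435 ± 0.17 (SE, edgeR adjusted p = 8.28e-05). Transcript of the targeted gene was reduced and still detected in each KO library. CreERT2 had 870, 658, 506, 507 and 597 CPM in KO replicates 1 to 5, against 963, 880, 1010, 944 and 894 CPM in WT. KO replicate 1 was the nearest of the KO libraries to the WT level of the recombinase. The log2 fold change of CreERT2 was -0.58 with all libraries (edgeR adjusted p = 0.0592) and -0.72 without KO replicate 1 (edgeR adjusted p = 0.00108). For tdTomato, KO libraries held 197 to 376 CPM and WT libraries 192 to 239 CPM, and the ranges overlapped at KO replicate 1.

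A gene was called when its edgeR adjusted p was under 0.05. Of 13136 genes tested, 256 were called (1.95%), 160 of them higher in KO (1.22%) and 96 lower in KO (0.731%). The largest increases above the expression minimum of the naming rule were of Hist1h2ah, Lox, Aldh1l2, Atf5, Cox6a2, Cst7, Mthfd2, Tpi1, Mif, Slc1a4, Slc16a3 and Gas5. The largest decreases were of Aoah, Plbd1, Ccr2, H2-Eb1, H2-Aa, H2-Ab1, Cd74, Gimap6, Igfbp4, Ermap, Ggt5 and Alox5. Without KO replicate 1, 1122 of 13318 genes were called (8.42%), 496 higher (3.72%) and 626 lower (4.7%), and these included all 256. The median log2 fold change of all genes tested was 0.0103 with all libraries and 0.0115 without KO replicate 1. Before adjustment, 2359 of the 13136 genes had an edgeR p under 0.05 with all libraries, and DESeq2 called 995 genes. List counts of either kind given below are to be read beside these. Most of the 256 calls sat close to the threshold: 242 had an adjusted p of 0.03 or more. When any one of the other 9 libraries was left out, between 10 and 15 genes were called.

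Besides the genes of the naming rule, all 10 genes called in every such fit are given, chosen after their values were seen. These 10 genes were called whichever of the 10 libraries was left out. They were Uqcrfs1, Hist1h2ah, Mcur1, Gpr137b, Ly86 and Aoah, which all lie on chromosome 13, and Ms4a6b, Tnfsf12, Alox5 and Gm26759, which do not. Alox5, the 5-lipoxygenase that starts leukotriene synthesis, had 41.6, 30.9, 30.6, 28.3 and 26.7 CPM in KO replicates 1 to 5, against 63.6, 64.9, 77.5, 55.3 and 75.9 CPM in WT. Its groups did not overlap, and it fell by 1.09 ± 0.137 on the log2 scale (SE, n = 5 and 5, edgeR adjusted p = 0.00758). Ms4a6b, a membrane protein of the MS4A family, had 59.4, 59.1, 49.2, 48.5 and 44.8 CPM in KO replicates 1 to 5, against 93.9, 96.4, 81.5, 89.3 and 89.9 CPM in WT (log2 fold change -0.79 ± 0.0958, edgeR adjusted p = 0.00725). Here too every KO library was below every WT library. Tnfsf12, the cytokine TWEAK, had 29.8, 22.3, 26.3, 19.3 and 25.1 CPM in KO replicates 1 to 5, against 47.6, 46.7, 47.8, 45.7 and 44.6 CPM in WT (log2 fold change -0.92, edgeR adjusted p = 0.00725). Gm26759, which has no named function, had 2.89 to 11.3 CPM in KO libraries and was at 0 in all 5 WT libraries.

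**Figure D1:**
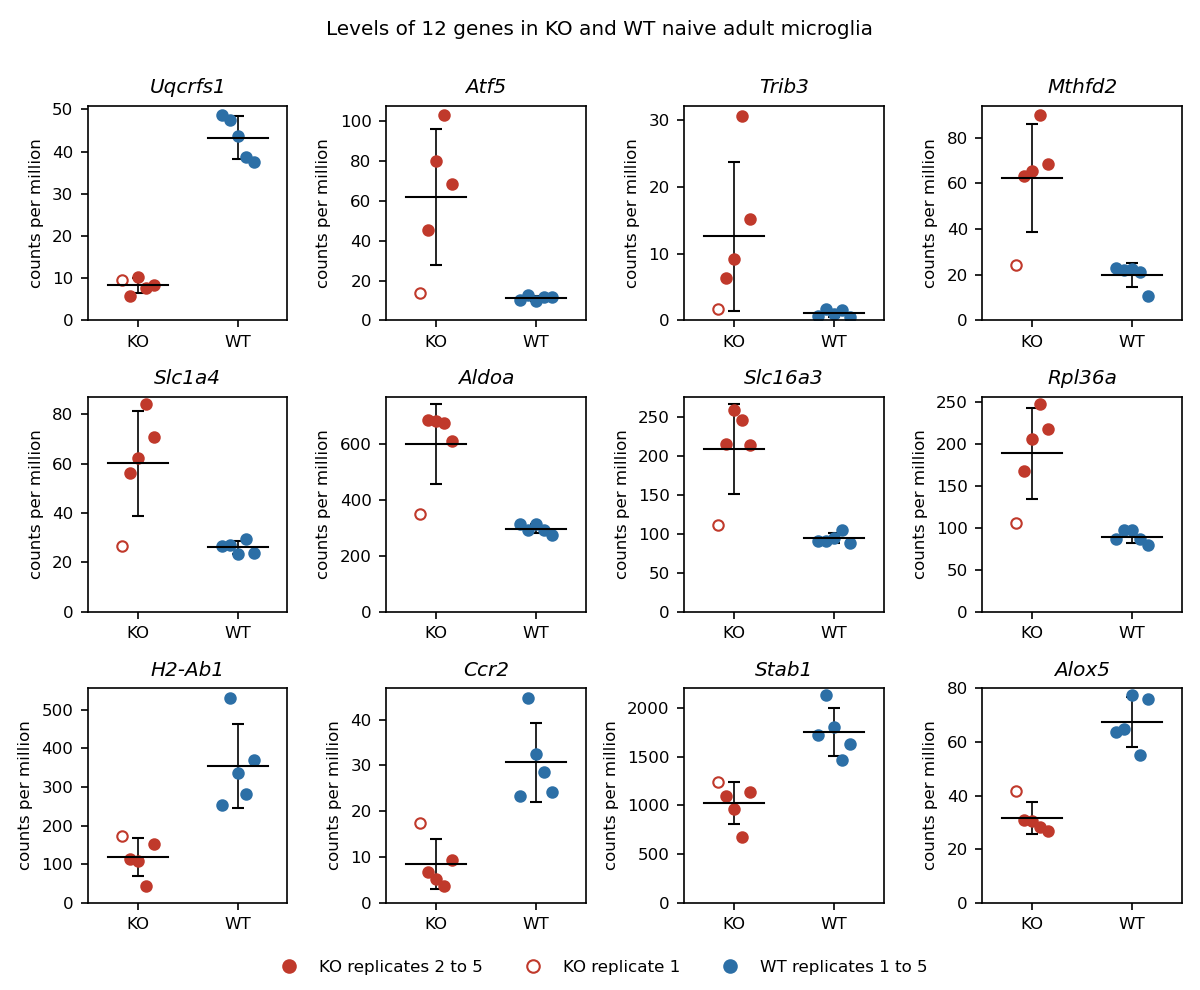
CPM (linear axes from 0) of 12 genes in each KO library (red, left, KO replicate 1 open) and each WT library (blue, right), with the mean as a line and 1 SD as a bar (n = 5 and 5). KO replicate 1 lies with the other KO libraries for Uqcrfs1 (9.59 against 5.75 to 10.2) and close to the WT libraries for Atf5 (13.6 against 9.86 to 12.9), Mthfd2, Slc1a4 and Aldoa.

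Part of the integrated stress response genes were higher in KO microglia. Of 19 regulators tested, 4 were higher and 0 lower, with a median log2 fold change of 0.672. Atf5, a transcription factor of the mitochondrial stress response, had 13.6, 45.4, 80.1, 103 and 68.4 CPM in KO replicates 1 to 5, against 10.1, 12.9, 9.86, 11.7 and 11.5 CPM in WT. KO replicate 1 stood just above the highest WT library, and the other KO libraries were far above both. The log2 fold change of Atf5 was 2.47 ± 0.413 with all libraries (SE, edgeR adjusted p = 0.0378) and 2.73 ± 0.208 without KO replicate 1 (edgeR adjusted p = 0.000167). Trib3, a pseudokinase induced by ATF4, had 1.65, 6.29, 9.21, 30.6 and 15.1 CPM in KO replicates 1 to 5, against 0.668, 1.7, 0.915, 1.62 and 0.555 CPM in WT. KO replicate 1 was inside the WT range and the other KO libraries above it, among which KO replicate 4 was the highest. Gdf15, a secreted stress hormone, had 2.81, 7.56, 4.94, 11 and 17.2 CPM in KO replicates 1 to 5, against 0.148, 1.55, 0.653, 0.772 and 0.238 CPM in WT, with no overlap. Eif4ebp1, a repressor of cap-dependent translation, was also called (log2 fold change 0.87 ± 0.186, edgeR adjusted p = 0.0425). Atf4 itself (0.19, edgeR adjusted p = 0.456) and Ddit3, which encodes CHOP (0.38, edgeR adjusted p = 0.34), did not pass the test. The count was 7 of 19 without KO replicate 1. None of the 19 was called when one of the other 9 libraries was left out, where the median stayed between 0.454 and 0.703.

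Of 15 genes of serine synthesis and the folate cycle tested, 5 were higher and 0 lower, and 10 did not pass. Aldh1l2, which oxidises formyl-folate in mitochondria, had 4.55, 31.5, 30.5, 30 and 41 CPM in KO replicates 1 to 5, against 4.45, 4.87, 3.92, 4.86 and 5.87 CPM in WT. KO replicate 1 was inside the WT range and the other 4 KO libraries were far above it. Its log2 fold change was 2.52 ± 0.44 with all libraries (SE, edgeR adjusted p = 0.0378) and 2.80 ± 0.159 without KO replicate 1 (edgeR adjusted p = 3.19e-05). Mthfd2, a dehydrogenase of the same cycle, had 24.3, 63.3, 65.4, 90 and 68.3 CPM in KO replicates 1 to 5, against 23, 22, 22.5, 21.1 and 10.5 CPM in WT. KO replicate 1 was just above the highest WT library, and the other KO libraries were well above it. Phgdh and Psat1, the first and second enzymes of serine synthesis, rose by 0.88 ± 0.152 and 1.06 ± 0.177 on the log2 scale (SE, edgeR adjusted p = 0.0378 for both), and Shmt2, which splits serine in mitochondria, by 0.79 ± 0.157 (edgeR adjusted p = 0.0395). The count was 6 of 15 without KO replicate 1, and at most 1 when another library was left out, which was Psat1.

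Amino acid transport and synthesis genes gave 3 of 16 higher and 0 lower, and the cytosolic tRNA synthetases 2 of 20 higher and 0 lower. Slc1a4, a carrier of alanine, serine and cysteine, had 26.7, 56.4, 62.4, 84 and 71 CPM in KO replicates 1 to 5, against 26.5, 27.1, 23.3, 29.6 and 23.7 CPM in WT, so that KO replicate 1 alone was at the WT level. Slc7a1, a carrier of cationic amino acids, and Got1, an aspartate aminotransferase, were the other two called (0.88 ± 0.193 and 0.85 ± 0.162, edgeR adjusted p = 0.0454 and 0.0378). Sars, the seryl-tRNA synthetase, had 94.9, 160, 179, 217 and 190 CPM in KO replicates 1 to 5, against 86.5, 87.4, 94.6, 93.3 and 88 CPM in WT. The KO libraries were all above the WT libraries, KO replicate 1 by the least. Asns, the asparagine synthetase, had a log2 fold change of 2.39 ± 0.554 and did not pass the test with all libraries (edgeR adjusted p = 0.0529) and passed it without KO replicate 1 (edgeR adjusted p = 0.00457). In the fit lacking KO replicate 1, 7 of 16 transport and synthesis genes and 12 of 20 synthetases were higher, and none of either list was called when another library was left out.

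Promoters of the called genes of these 4 lists were searched on both strands for TGATGNAA, the core of the element bound by ATF4 with its partners. The promoters are RefSeq windows (GRCm38.p6) of 250 bases before to 50 bases after each gene's start. Of 12 called genes with a promoter in the table, 3 held the motif (25%), and of 56 tested members of the lists 14 held it (25%), against 2.8% of 9653 tested genes. The lists were written from general knowledge, so their share of the motif is not a result of these data. Among all called genes with a promoter, it was in 4.39% of those higher and 5.63% of those lower. The 3 promoters are shown because their genes are among those described above, each on its own coding strand with the match in capitals, which reads as the reverse complement of the motif.
Trib3, chr2:152344011-152344310, minus strand: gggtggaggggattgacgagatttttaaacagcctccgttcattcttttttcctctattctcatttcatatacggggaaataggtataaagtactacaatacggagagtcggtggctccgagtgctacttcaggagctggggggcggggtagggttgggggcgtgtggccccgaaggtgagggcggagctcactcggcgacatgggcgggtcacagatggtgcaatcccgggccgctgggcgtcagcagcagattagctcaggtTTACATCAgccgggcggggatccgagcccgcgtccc
Slc1a4, chr11:20332664-20332963, minus strand: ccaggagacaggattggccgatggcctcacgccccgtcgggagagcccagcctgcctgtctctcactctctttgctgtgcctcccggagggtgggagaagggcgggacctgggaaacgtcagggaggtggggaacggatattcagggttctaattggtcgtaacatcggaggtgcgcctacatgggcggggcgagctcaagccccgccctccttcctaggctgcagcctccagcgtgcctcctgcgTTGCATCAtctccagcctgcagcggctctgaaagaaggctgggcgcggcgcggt
Got1, chr19:43524556-43524855, minus strand: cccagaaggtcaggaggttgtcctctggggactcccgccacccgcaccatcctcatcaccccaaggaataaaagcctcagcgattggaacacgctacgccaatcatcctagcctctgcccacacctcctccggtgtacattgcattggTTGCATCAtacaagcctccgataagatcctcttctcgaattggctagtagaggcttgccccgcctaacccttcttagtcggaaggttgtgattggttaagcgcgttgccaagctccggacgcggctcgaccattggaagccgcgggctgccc
A match describes these letters and does not show that a factor binds there.

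The cytosolic ribosome was the list with the most calls. Of 85 ribosomal protein genes tested, 68 were higher in KO and 0 lower, with a median log2 fold change of 0.768 against 0.0103 over all genes tested. The 17 that did not pass included paralogs such as Rpl39l, Rps4l and Rpl7l1. Rpl36a had 106, 168, 206, 248 and 218 CPM in KO replicates 1 to 5, against 87.2, 97.7, 97.3, 86.2 and 79.8 CPM in WT. Rps2 had 444, 618, 801, 882 and 743 CPM in KO replicates 1 to 5, against 347, 407, 377, 394 and 370 CPM in WT. For both genes every KO library was above every WT library, with KO replicate 1 the lowest of the KO libraries. The log2 fold change was 1.08 ± 0.188 for Rpl36a and 0.88 ± 0.155 for Rps2 (SE, edgeR adjusted p = 0.0378 for both). KO and WT ranges did not overlap for 37 of the 85, against 1.96% of all genes tested with KO higher. Gas5, a host gene of small nucleolar RNAs whose transcript, like those of the ribosomal proteins, starts with a pyrimidine tract, rose by 1.12 ± 0.249 (edgeR adjusted p = 0.047). As many as 78 of the 85 were higher without KO replicate 1, and none was called when one of the other 9 libraries was left out, where the median was 0.67 to 0.813. Many ribosomal protein genes have near-identical pseudogenes, which the counting could share reads with. Among 77 mitochondrial ribosome genes edgeR called 0 and DESeq2 1, with 10 at an unadjusted p under 0.05, and the median was 0.0979.

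Glycolysis genes from aldolase onwards were higher in KO microglia. Of 21 genes of glycolysis and lactate export, 9 were higher and 0 lower, with a median log2 fold change of 0.555. The called genes were Aldoa, Tpi1, Gapdh, Pgk1, Pgam1, Eno1, Pkm and Ldha, which encode consecutive enzymes from the splitting of fructose bisphosphate to lactate, and the lactate exporter Slc16a3. Aldoa, the aldolase, had 349, 686, 683, 676 and 609 CPM in KO replicates 1 to 5, against 313, 291, 314, 291 and 276 CPM in WT. Slc16a3 had 112, 216, 259, 246 and 214 CPM in KO replicates 1 to 5, against 91.1, 91.3, 95.2, 105 and 88.7 CPM in WT. Both were above WT in all KO libraries, and KO replicate 1 was nearer to WT than to the other KO libraries. Aldoa rose by 1.02 ± 0.161 on the log2 scale (SE, edgeR adjusted p = 0.0378, 3.19e-05 without KO replicate 1), and Slc16a3 by 1.15 ± 0.185 (edgeR adjusted p = 0.0378, 5.59e-05 without KO replicate 1). The glucose transporter Slc2a1 (0.12, edgeR adjusted p = 0.596) and the hexokinases Hk2 (0.29, edgeR adjusted p = 0.37) and Hk1 (-0.33, edgeR adjusted p = 0.0776), which stand before those steps, did not pass. Without KO replicate 1, 11 were higher and 1, Hk1, lower, and none was called when another library was left out (median 0.494 to 0.58).

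Of 21 genes of the hypoxia-inducible factor (HIF) pathway and its targets, 2 were higher and 0 lower. Hif1a, the oxygen-regulated subunit, had 151, 228, 219, 309 and 289 CPM in KO replicates 1 to 5, against 151, 138, 151, 147 and 137 CPM in WT, with KO replicate 1 at the top of the WT range. It rose by 0.72 ± 0.161 on the log2 scale (SE, edgeR adjusted p = 0.0476). Lox, which crosslinks collagen, had 2.31, 5.69, 27, 34.8 and 19.9 CPM in KO replicates 1 to 5, against 1.26, 1.84, 1.76, 3.24 and 1.03 CPM in WT (log2 fold change 3.29 ± 0.663, edgeR adjusted p = 0.0399), and KO replicate 1 was inside the WT range. Vegfa, an angiogenic growth factor, had a log2 fold change of 2.80 ± 0.638 (edgeR adjusted p = 0.0502). Epas1, the HIF2 alpha subunit, went the other way, with 60.7, 18.5, 22.6, 20.4 and 31.6 CPM in KO replicates 1 to 5 and 75.6, 86.7, 52.9, 52.8 and 65.3 CPM in WT (log2 fold change -1.12, edgeR adjusted p = 0.0911, and -1.51 with edgeR adjusted p = 0.00122 without KO replicate 1). Epas1 is also an endothelial gene, and the endothelial markers given below moved in the same libraries. The part of endothelial cells in the Epas1 values was not tested. Without KO replicate 1, 8 were higher and 2 lower, and none was called when another library was left out.

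The same RefSeq promoter windows were searched for ACGTG, the core of the hypoxia response element, on both strands. It was present in 8 of 10 called genes of these 2 lists with a promoter in the table (80%) and in 25 of 37 tested ones (67.6%), against 29.1% of 9653 tested genes. These lists too were written from general knowledge. Among all called genes with a promoter, ACGTG was in 34.2% of those higher and 25.4% of those lower. Windows of Ldha, Pgk1, Slc16a3, Pkm and Hif1a held it 2 or more times, and those of Ldha, Pgk1 and Slc16a3 are shown as examples of 2 enzymes and the lactate exporter. A gene with several starts has several windows and counts once if any holds the motif, and the second window of Ldha held none. Capitals mark the matches, and CACGTG, a palindrome, counts once on each strand, which gives Ldha 5 matches, Pgk1 2 and Slc16a3 2.
Ldha, chr7:46845554-46845853, plus strand: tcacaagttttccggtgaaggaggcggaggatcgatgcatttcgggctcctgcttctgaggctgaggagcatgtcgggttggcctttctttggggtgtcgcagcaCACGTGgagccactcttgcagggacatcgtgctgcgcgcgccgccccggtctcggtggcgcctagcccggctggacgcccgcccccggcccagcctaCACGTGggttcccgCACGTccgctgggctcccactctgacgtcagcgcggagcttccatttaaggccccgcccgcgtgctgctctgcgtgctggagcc
Pgk1, chrX:106186850-106187149, plus strand: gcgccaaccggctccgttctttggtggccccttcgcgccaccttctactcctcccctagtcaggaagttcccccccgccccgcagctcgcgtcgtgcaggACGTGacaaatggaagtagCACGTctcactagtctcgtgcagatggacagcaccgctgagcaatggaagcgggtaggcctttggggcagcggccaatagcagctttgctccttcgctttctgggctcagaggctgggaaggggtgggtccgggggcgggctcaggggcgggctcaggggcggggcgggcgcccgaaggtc
Slc16a3, chr11:120948817-120949116, plus strand: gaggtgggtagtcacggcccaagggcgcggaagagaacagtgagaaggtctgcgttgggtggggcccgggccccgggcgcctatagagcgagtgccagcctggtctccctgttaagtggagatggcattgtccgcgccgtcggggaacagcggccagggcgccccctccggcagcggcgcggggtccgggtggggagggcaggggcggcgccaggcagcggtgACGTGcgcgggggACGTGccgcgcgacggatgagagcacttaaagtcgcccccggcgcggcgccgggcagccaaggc

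Genes for the respiratory chain gave few calls. Of the 14 other genes of complex III and its assembly, edgeR and DESeq2 called 0, with 1 (Uqcrh) at an unadjusted p under 0.05, and the median log2 fold change was 0.0572. Complex I gave 0 of 36 nuclear genes by edgeR and 2 by DESeq2, with 4 at an unadjusted p under 0.05. In complex IV 1 of 15 was called: Cox6a2, the heart and muscle isoform of a cytochrome oxidase subunit, had 11.8, 26.8, 64.4, 51.7 and 34.3 CPM in KO replicates 1 to 5, against 13.1, 8.04, 7.9, 13.2 and 8.96 CPM in WT. KO replicate 1 was inside the WT range and the other KO libraries above it (log2 fold change 1.89 ± 0.384, edgeR adjusted p = 0.0403). Of the 13 protein genes of mitochondrial DNA, mt-Co3 and mt-Nd3 were called higher (0.76 ± 0.14 and 0.65 ± 0.131, edgeR adjusted p = 0.0378 and 0.0398), and the median was 0.633. The mt-Co3 level was 1610, 1820, 2490, 2520 and 2710 CPM in KO replicates 1 to 5, against 1340, 1500, 1180, 1300 and 1280 CPM in WT, with no overlap. All but mt-Cytb, 12 of the 13, were higher without KO replicate 1, and with another library left out none was.

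**Figure D2:**
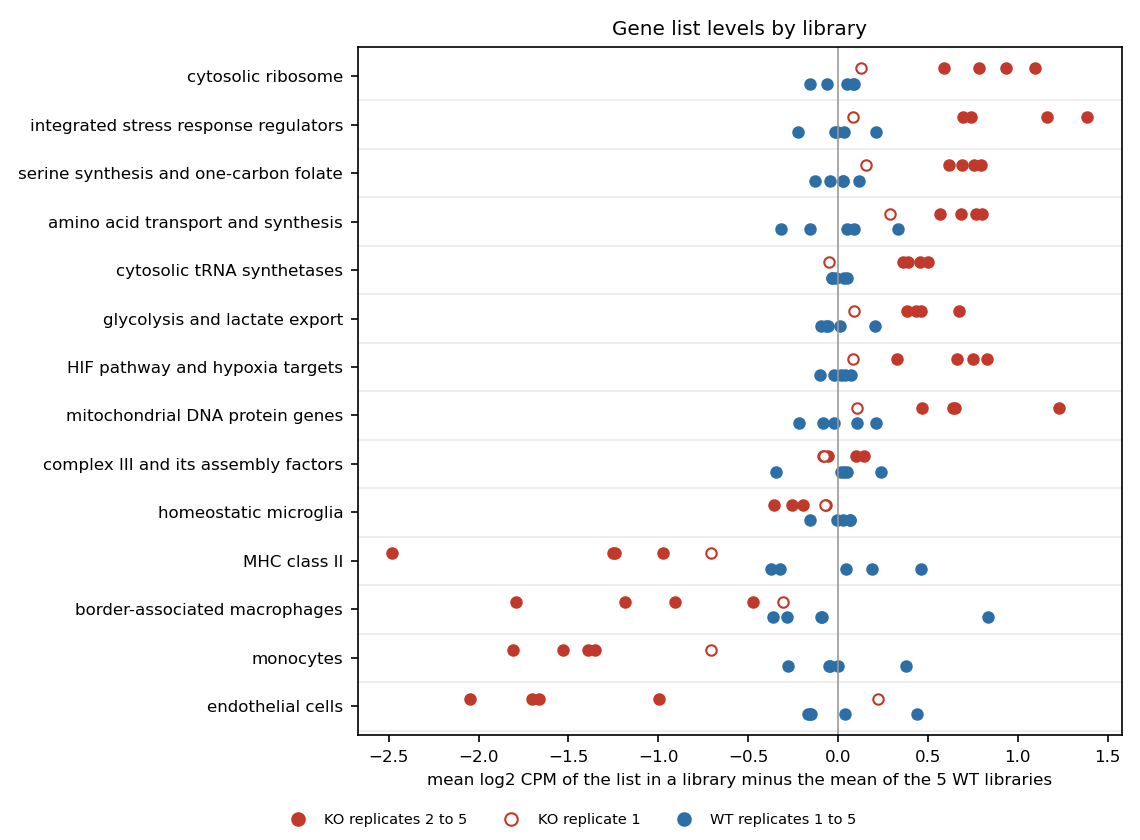
Mean log2 CPM over the tested members of 14 gene lists in each KO library (red, upper row, KO replicate 1 open) and each WT library (blue, lower row), minus the mean of the 5 WT libraries. KO replicates 2 to 5 lie to the right of every WT library for the ribosome, stress, folate, glycolysis and HIF lists and to the left for the endothelial list, where KO replicate 1 lies among the WT libraries.

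The microglial identity genes gave no call with all libraries. Of 19 homeostatic markers edgeR called 0 and DESeq2 3 lower, with 11 at an unadjusted p under 0.05, all lower, and the median log2 fold change was -0.197. Tmem119, Cst3 and Selplg were lower without KO replicate 1 (-0.40, -0.49 and -0.59, edgeR adjusted p = 0.0214, 0.0427 and 0.00788). Cx3cr1, the fractalkine receptor, had 3790 to 4130 CPM in KO libraries and 3950 to 5020 CPM in WT libraries (-0.20, edgeR adjusted p = 0.179). Of 26 genes of injury-associated (DAM) microglia, 4 were higher and 1 lower. Cst7, a cystatin that inhibits lysosomal proteases, had 11.5, 42.5, 35, 55.4 and 27.6 CPM in KO replicates 1 to 5, against 10.7, 10.4, 10.9, 9.49 and 5.39 CPM in WT. KO replicate 1 was just above the WT range (log2 fold change 1.87 ± 0.356, edgeR adjusted p = 0.0378). Gpnmb, a glycoprotein of stressed macrophages, and the cathepsins Ctsd and Ctsb were also higher (2.03, 0.49 and 0.50, edgeR adjusted p = 0.0403, 0.0385 and 0.0424). Axl, a receptor for the clearance of dying cells, was lower, at 81.4, 72.7, 81.8, 78.5 and 80.6 CPM in KO replicates 1 to 5, against 107, 212, 158, 140 and 105 CPM in WT. For Axl KO replicate 1 was level with the other KO libraries (-0.87 ± 0.172, edgeR adjusted p = 0.0385). Apoe, which is a DAM gene too, had a log2 fold change of -0.84 (edgeR adjusted p = 0.103). Of 22 lysosome genes Mcoln1, Gaa and Ctsz, a calcium channel, an alpha-glucosidase and a cathepsin, were higher (0.70, 0.65 and 0.49, edgeR adjusted p = 0.0422, 0.0433 and 0.0454). Without KO replicate 1, 5 of 26 DAM genes were higher and 3 lower, and 7 of 22 lysosome genes were higher and 3 lower. None of the DAM or lysosome genes was called when one of the other 9 libraries was left out.

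Transcripts of MHC class II, which presents antigen to T cells, were lower in KO for part of the list. Of 7 genes 4 were lower and 0 higher: the chains H2-Aa, H2-Ab1 and H2-Eb1 and the invariant chain Cd74, with log2 fold changes of -1.63 ± 0.341, -1.58 ± 0.319, -1.64 ± 0.358 and -1.56 ± 0.335 (SE, edgeR adjusted p = 0.041, 0.0398, 0.0454 and 0.0424). H2-Ab1 had 173, 113, 108, 44.6 and 152 CPM in KO replicates 1 to 5, against 252, 531, 335, 281 and 369 CPM in WT. All 4 genes had every KO library below every WT library, KO replicate 1 included. Without KO replicate 1, 6 of 7 were lower, and none was called when another library was left out (median -1.72 to -1.37). Markers of macrophages at the brain's borders and of monocytes, which share the surface proteins of the sort and can carry MHC class II, moved with them. The 12 border-associated markers summed to 1930, 1460, 1430, 910 and 1840 CPM in KO replicates 1 to 5, against 2420, 3760, 2640, 2140 and 2510 CPM in WT. The 10 monocyte markers summed to 113, 67, 68.4, 37.1 and 67.5 CPM in KO replicates 1 to 5, against 172, 208, 146, 130 and 147 CPM in WT. Neither sum overlapped between the groups, no marker of either list was at 0, and their part in the lower MHC class II transcripts was not tested. Stab1 alone held 1240 of the border-associated CPM in KO replicate 1 and 1720 in WT replicate 1. By mean log2 CPM over the 12 border-associated markers, KO replicate 1 had 5.58, inside the WT range of 5.52 to 6.72. Every KO library was below every WT library for 3 of the 12, against 2.4% of all genes tested. The monocyte mean was 1.99 in KO replicate 1 and at least 2.415 in WT. In sorted bulk samples fewer cells of a type and less RNA per cell cannot be told apart.

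Among these markers Ccr2, the chemokine receptor of inflammatory monocytes, had 17.5, 6.76, 5.24, 3.78 and 9.41 CPM in KO replicates 1 to 5, against 23.4, 44.8, 32.5, 28.6 and 24.3 CPM in WT (log2 fold change -1.85 ± 0.368, edgeR adjusted p = 0.0395). Plbd1, a phospholipase-like protein of myeloid cells, and Itga4, an integrin for vessel adhesion, completed the 3 of 9 monocyte genes called (-2.10 and -1.08, edgeR adjusted p = 0.0378 and 0.0461). Of the border-associated markers Stab1, a scavenger receptor, and Clec4n, a C-type lectin, were called (-0.77 and -0.86, edgeR adjusted p = 0.0395 and 0.0478). Pf4 (-1.13, edgeR adjusted p = 0.112) and Mrc1 (-0.999, edgeR adjusted p = 0.143) were not. Without KO replicate 1, 5 of 9 monocyte and 3 of 12 border-associated genes were lower. None of either list was called when one of the other 9 libraries was left out.

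Endothelial markers separated KO replicate 1 from the other KO libraries. The 11 markers summed to 612, 170, 176, 137 and 269 CPM in KO replicates 1 to 5, against 573, 699, 469, 482 and 477 CPM in WT, so KO replicate 1 was inside the WT range and the other 4 KO libraries were below it. Cldn5, a tight junction protein of brain endothelium, had 120, 17.6, 19.5, 14.9 and 42.3 CPM in KO replicates 1 to 5, against 128, 127, 89, 101 and 85.8 CPM in WT. With all libraries edgeR called 0 of the 11 (DESeq2 3 lower, 8 at an unadjusted p under 0.05), and without KO replicate 1 it called 9 lower, with a median of -1.65. Endothelial cells lack CD11b and would fall outside the sort gate, and where these counts came from was not tested. Lymphocyte markers summed to 236 to 277 CPM in KO libraries and 284 to 325 CPM in WT libraries, and neutrophil markers to 340 to 477 CPM in KO libraries and 319 to 383 CPM in WT libraries. The edgeR test called 0 of 4 lymphocyte and 0 of 6 neutrophil genes tested (DESeq2 1 and 0, with 3 and 1 at an unadjusted p under 0.05). Gimap6, a GTPase of lymphocytes and endothelium, had 22.7, 11, 11.2, 10.9 and 10.8 CPM in KO replicates 1 to 5, against 31.6, 29.2, 27.4, 32.1 and 37.5 CPM in WT, with KO replicate 1 between the groups (-1.24 ± 0.216, edgeR adjusted p = 0.0378). Igfbp4 and Ggt5, an insulin-like growth factor binding protein and a gamma-glutamyltransferase, also fell (-1.24 and -1.12, edgeR adjusted p = 0.0378 and 0.049), and without KO replicate 1 by 1.45 and 1.32. The part of other cells in these falls was not tested.

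In KO against WT, chromosome 13 around Uqcrfs1 held a larger share of calls than the rest of the genome. The region and its genes were chosen after the values were seen, so the counts are a description. Within 20 Mb of Uqcrfs1, 16 of 161 tested genes were called (9.94%), 6 higher and 10 lower, against 240 of 12975 genes elsewhere (1.85%) and 2 of 325 on the rest of chromosome 13 (0.615%). Within 10 Mb the count was 9 of 83 (10.8%). The 14 genes with an adjusted p under 0.03 included 8 on chromosome 13. KO and WT ranges did not overlap for 14 of the 16 genes, against 176 of the 240 called elsewhere (73.3%) and 4.35% of all genes tested. Without KO replicate 1, 26 of 165 genes within 20 Mb were called (15.8%), against 8.33% of genes elsewhere. In 2 comparisons described below, the shares were 20.5% and 12.9% for KO against WT after repopulation. For KO against Het in middle-depth libraries they were 9.41% and 10.8%, so the region held no larger share there.

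Ly86 (chr13:37345208-37419036, plus strand), also called MD-1, the partner of the receptor RP105 on macrophages and B cells, had 372, 317, 326, 279 and 267 CPM in KO replicates 1 to 5, against 593, 622, 639, 599 and 553 CPM in WT. The highest KO library was well under the lowest WT library (log2 fold change -0.94 ± 0.0928, edgeR adjusted p = 0.0013). Mcur1 (chr13:43538393-43560191, minus strand), a regulator of mitochondrial calcium uptake, had 53.7, 51, 54.4, 51.5 and 57.6 CPM in KO replicates 1 to 5, against 92.5, 88.4, 101, 95.4 and 90.8 CPM in WT (-0.80 ± 0.0685, edgeR adjusted p = 0.000495). The spread within each group was small and KO replicate 1 was in the middle of the KO libraries. Gpr137b (chr13:13357620-13394014, minus strand), a lysosomal membrane protein, was higher, with 135, 150, 163, 162 and 136 CPM in KO replicates 1 to 5, against 76.9, 80.5, 81.6, 83.6 and 88.8 CPM in WT (0.86 ± 0.0781, edgeR adjusted p = 0.00072).

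Aoah (chr13:20794113-21036617, plus strand), the acyloxyacyl hydrolase that inactivates bacterial lipopolysaccharide, had 2.23, 3.61, 2.32, 2.4 and 3.48 CPM in KO replicates 1 to 5, against 10.4, 22.3, 13.7, 9.1 and 15.3 CPM in WT (-2.32 ± 0.274, edgeR adjusted p = 0.00681). Again every KO library was below every WT library. The histone gene Hist1h2ah (chr13:22035164-22035568, minus strand) had 14.7, 21.3, 17.5, 14.8 and 15.7 CPM in KO replicates 1 to 5, against 0.327 CPM in WT replicate 3 and 0 in the other WT libraries. It has near-identical copies in its cluster, so the counting could move reads between them, and no fold change is given because most WT libraries were at 0. Ero1lb and Irf4, an oxidase of the endoplasmic reticulum and an interferon regulatory factor, were lower (-1.07 and -0.98, edgeR adjusted p = 0.0138 and 0.0385). Cdkal1, a tRNA-modifying enzyme, and Eef1e1, part of the multi-synthetase complex, were higher (0.76 and 0.69, edgeR adjusted p = 0.0227 and 0.0378). The remaining members were Cage1 and Nhlrc1, both higher, and Hfe, Gmpr, Kif13a and Rnf144b, all lower.

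**Figure D3:**
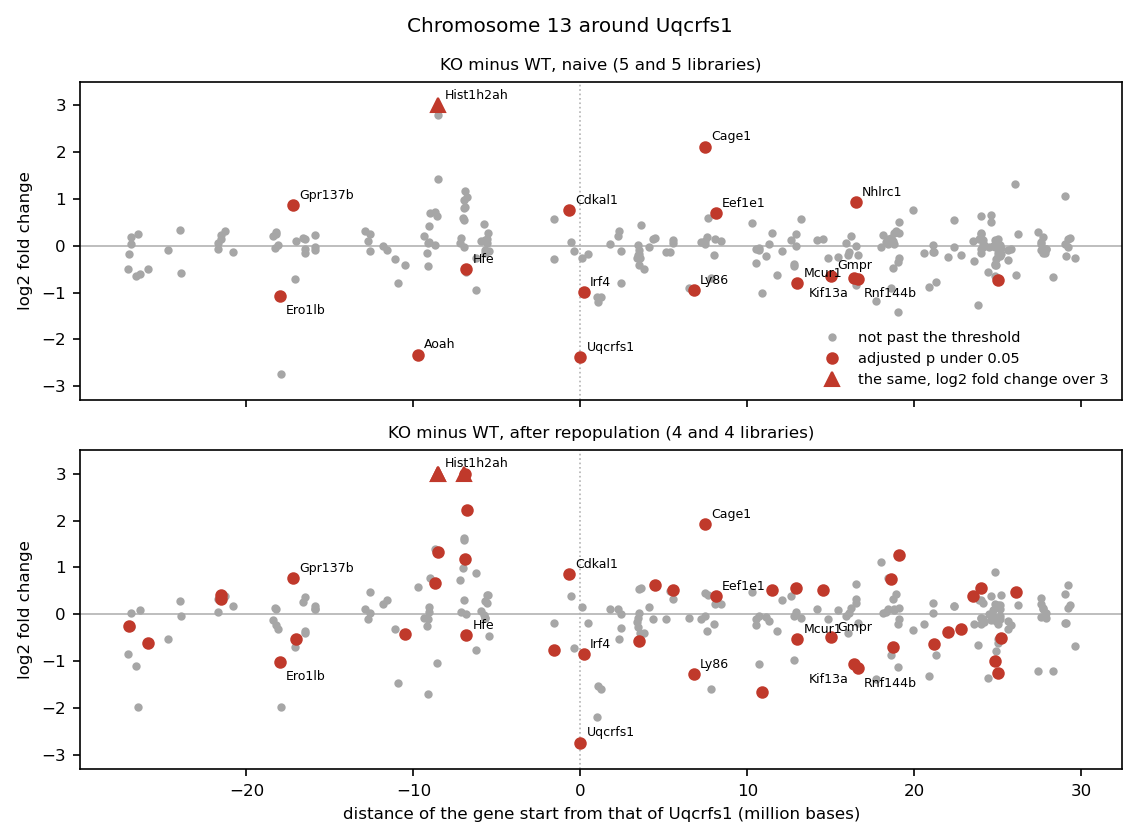
Log2 fold change of KO against WT for the tested genes of chromosome 13 against the distance of each gene start from that of Uqcrfs1 (Mb), for naive libraries (top, 5 and 5) and libraries after repopulation (bottom, 4 and 4). Red symbols mark genes with an adjusted p under 0.05, and triangles those whose log2 fold change is over 3 and is drawn at 3. Names mark the 16 genes called within 20 Mb in naive libraries, of which 14 were also called after repopulation.

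The position of KO replicate 1 was compared with the WT range at called genes. It was outside the WT range, on the side of the KO mean, for 14 of the 16 genes of the region and for 176 of the 240 genes called elsewhere (73.3%), and the difference between these shares was not tested. Over the 1114 genes called without KO replicate 1 and tested in both fits, it lay inside the WT range for 669 of 1088 genes outside the region (61.5%) and for 10 of 26 genes inside it (38.5%). Along the direction of the change, its median difference from the WT mean was 0.1 on the log2 scale outside the region, where the median size in KO replicates 2 to 5 was 0.795. Inside the region the values were 0.537 for KO replicate 1 and 0.969 for KO replicates 2 to 5. These genes were chosen with KO replicate 1 left out, so its distance from the other KO libraries is part of their selection and carries no test.

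**Figure D4:**
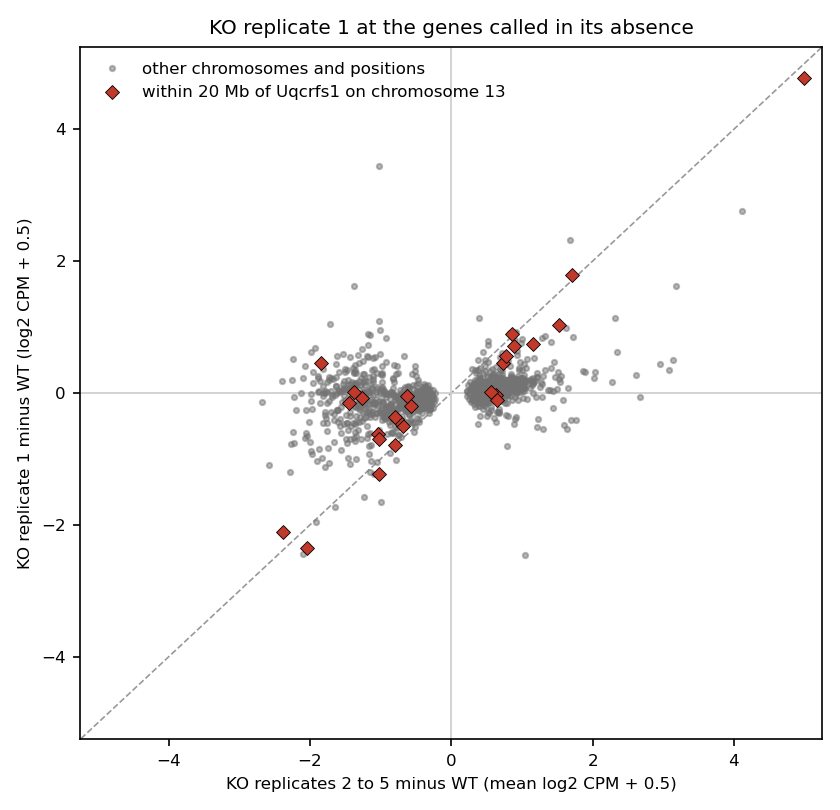
Difference from the WT mean in KO replicate 1 (vertical) against the mean difference in KO replicates 2 to 5 (horizontal), both as log2 of CPM plus 0.5, for the genes called without KO replicate 1. Grey points, outside the 20 Mb region, have a vertical median of 0.1 along the direction of the change, and 669 of 1088 lie inside the WT range. Red diamonds, inside the region, have a median of 0.537 and lie nearer on average to the dashed line of equality. The genes were chosen with KO replicate 1 left out, so its distance from the line carries no test.

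Heterozygous naive adult libraries of the same library set gave values for this region beside the groups. Ly86 had 435, 428 and 402 CPM in Het replicates 2 to 4, between the KO range of 267 to 372 and the WT range of 553 to 639 CPM. For 14 of the 16 genes the mean of Het replicates 2 to 4 lay between the KO and the WT mean. These include genes near the WT level, such as Hfe, at 178, 184 and 169 CPM against a WT range of 156 to 193 CPM. The library labelled Het replicate 1 was inside the WT range for 9 of the 16 genes. It had 40.9 CPM of Uqcrfs1, 560 CPM of Ly86 and 0 of Hist1h2ah, each inside the WT range, while Het replicates 2 to 4 had 25.6, 23.6 and 21.2 CPM of Uqcrfs1 and 5.03, 6.27 and 4.39 CPM of Hist1h2ah. Outside the WT range, it had 17.1 CPM of Cdkal1, between the WT and KO ranges, and 38.9 CPM of Ero1lb and 46.6 CPM of Kif13a, above the WT range and away from KO. Rnf144b, at 67.8 CPM, was below the WT range and inside the KO range. Gpr137b, at 89.1 CPM, and Gmpr, at 43.3 CPM, lay just past the WT range on the KO side. Cage1 was at 0, below the WT range and away from KO. The Het libraries enter no test here, and neither count was made for genes outside the region. Het CPM were scaled together with the 10 libraries, while KO and WT CPM were scaled over the 10 alone.

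KO and WT could also be compared in 4 and 4 adult libraries labelled as repopulation after PLX3397, which depletes microglia by blocking CSF1R, and these share none with the naive ones. The repopulation test came from a joint fit with the 10 naive libraries, so the filter, scaling and estimate of spread are shared. In that comparison 1824 of 14074 genes were called (13%), with 6.28% higher and 6.68% lower. Of the 256 naive calls, 187 were called there as well, which is 73% of the naive and 10.3% of the repopulation calls, and all 187 had the same direction. Of the 16 genes around Uqcrfs1, 14 were called there and 15 had the same direction. Aoah was the one that did not, at 0.57 (edgeR adjusted p = 0.546), though the difference between the settings did not pass for it (-2.89, edgeR adjusted p = 0.181). Atf5 and Trib3 had log2 fold changes of 3.89 and 5.91 after repopulation (edgeR adjusted p = 1.93e-05 and 0.000106), and Ly86 -1.28 (edgeR adjusted p = 2.66e-07). H2-Ab1 had -0.60 (edgeR adjusted p = 0.202), Ccr2 -0.44 (edgeR adjusted p = 0.502) and Slc16a3 0.41 (edgeR adjusted p = 0.166), which did not pass. Cd74 did, at -1.26 (edgeR adjusted p = 0.0175), and by list 2 of 7 MHC class II genes and 3 of 10 monocyte genes were lower and 6 of 21 glycolysis genes higher after repopulation.

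The difference between the naive and the repopulation fold change was tested for each gene, and 8 of 14074 genes were called (0.0568%). Leaving out one library gave 4 to 22. The 8, chosen after their values were seen, were Gm26759, Spint1, Il7r, Slamf8, Olfml3, Lag3, Nat8l and Cep152. For Slamf8, a receptor of the SLAM family, the log2 fold change was -0.39 in naive (edgeR adjusted p = 0.203) and -1.98 after repopulation, with a difference of 1.59 (edgeR adjusted p = 0.00309). The difference for Lag3, an MHC class II binding receptor, was 1.74 (edgeR adjusted p = 0.00113), and for Il7r, the interleukin 7 receptor, 1.81 (edgeR adjusted p = 0.0456). For H2-Ab1 the difference was -0.98 (edgeR adjusted p = 0.464), for Alox5 -0.96 (edgeR adjusted p = 0.0879) and for Atf5 -1.42 (edgeR adjusted p = 0.397), so none of these was shown to differ between the settings.

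Another set of naive adult libraries, 6 KO and 7 Het of middle depth, also shared none with the 10, though its test came from a joint fit with them. Its reference genotype and its library set differ at once from those of the KO and WT libraries, and their parts cannot be told apart. There 1618 of 15017 genes were called (10.8%, with 5.11% higher and 5.67% lower), among them 164 of the 256 (64.1% of these and 10.1% of the 1618), of which 163 had the same direction. The ribosomal protein genes were higher there too, 74 of 83 tested, and 65 of 85 were higher and 1 lower after repopulation. In KO against Het 9 of 21 glycolysis genes were higher, and 0 of 7 MHC class II and 0 of 8 monocyte genes were called. H2-Ab1 had -0.34, Ccr2 -0.48, Alox5 -0.17 and Slc16a3 0.32 (edgeR adjusted p = 0.46, 0.576, 0.682 and 0.354). For none of these genes did the difference between the comparisons pass (edgeR adjusted p = 0.193, 0.527, 0.268 and 0.287). Of the 16 genes around Uqcrfs1, 13 had the same direction there and 3 were called, Uqcrfs1, Aoah and Irf4. The difference between the comparisons was called for 116 of 15017 genes (0.772%), 102 positive (0.679%) and 14 negative (0.0932%), and for Mcur1, Gpr137b, Ero1lb, Cage1 and Hist1h2ah of the 16. Mcur1 had 0.22 in KO against Het (edgeR adjusted p = 0.338), and the difference was -1.01 (edgeR adjusted p = 0.0153). Gpr137b had 0.21 there (edgeR adjusted p = 0.151), and the difference was 0.67 (edgeR adjusted p = 0.0179).

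**Figure D5:**
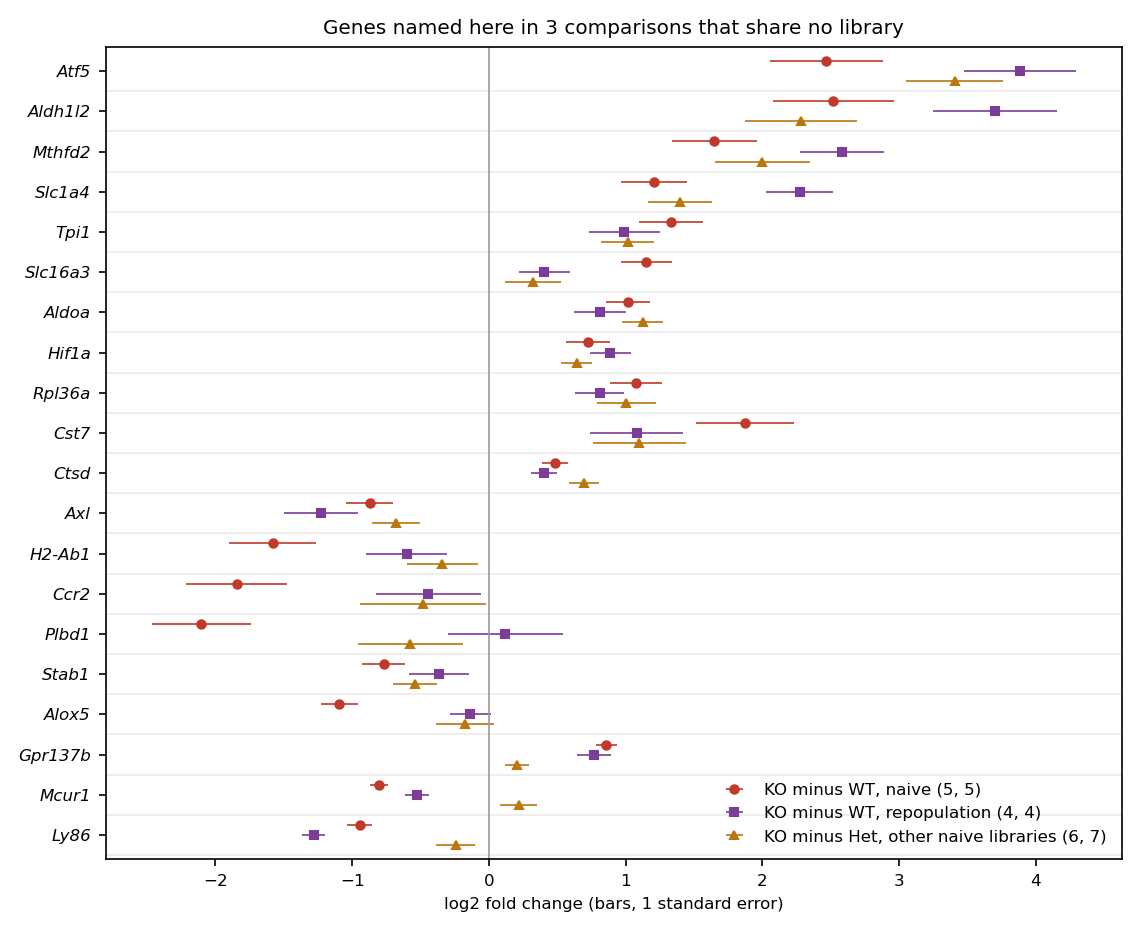
Log2 fold change with 1 standard error of 20 genes in KO against WT naive libraries (red, 5 and 5), KO against WT after repopulation (purple, 4 and 4) and KO against Het in the middle-depth naive libraries (orange, 6 and 7). The stress, glycolysis and ribosome genes drawn, which were called in naive libraries, lie right of 0 in all 3 comparisons. By list, 10 of 19 stress response regulators were higher and 1 lower after repopulation. In KO against Het 6 of the 19 were higher and 4 lower (median 0.149). Gpr137b, Mcur1 and Ly86 lie away from 0 in both KO against WT comparisons (Ly86 -0.94 and -1.28). They lie nearer to 0 in KO against Het (Ly86 -0.24).

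Immediate early genes, which rise within minutes of stimulation or tissue dissociation, varied between libraries. Fos had 111, 157, 50.9, 265 and 1080 CPM in KO replicates 1 to 5, against 145, 324, 244, 113 and 374 CPM in WT, and both groups spread widely. Those named here were chosen after their values were seen. Of 20 such genes edgeR and DESeq2 called 0, with 2 at an unadjusted p under 0.05 (median log2 fold change 0.502). In the middle-depth KO against Het comparison 18 of 20 were lower, and the difference between the comparisons was 4.09 for Egr2 (edgeR adjusted p = 0.00356) and 2.71 for Jund (edgeR adjusted p = 0.00326). Of 21 cytokine and NF-kB genes edgeR called 0 and DESeq2 1, with 7 at an unadjusted p under 0.05, and Ccl3, a chemokine, had 20.3, 82.8, 31.7, 130 and 169 CPM in KO replicates 1 to 5, against 33.5, 33.3, 32.1, 18.3 and 28.8 CPM in WT (1.57, edgeR adjusted p = 0.126). Of 17 p53 and BCL2 family genes edgeR called 0 and DESeq2 3, with 6 at an unadjusted p under 0.05. Cdkn1a, the cell cycle inhibitor p21, had a log2 fold change of 1.31 (edgeR adjusted p = 0.0706, and 1.51 with edgeR adjusted p = 0.00521 without KO replicate 1).

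Several other lists gave no call by edgeR with all libraries. Over all 13136 genes tested, 2359 had an unadjusted edgeR p under 0.05, and DESeq2 called 995. Among 26 type I interferon genes 7 had an unadjusted p under 0.05, all lower, and DESeq2 called 5. For the endoplasmic reticulum unfolded protein response the median was -0.198, 7 of 18 genes had an unadjusted p under 0.05, all lower, and DESeq2 called 2. The 12 complement genes had 9 at an unadjusted p under 0.05, 2 of them higher, and DESeq2 called 6 lower. Of 34 cell cycle genes 4 had an unadjusted p under 0.05 and DESeq2 called 1, and of 22 cholesterol synthesis genes 1 and 0. The median log2 fold change was 0.117 for ATP synthase and 0.0116 for the TCA cycle. Of 15 nuclear ATP synthase genes 3 had an unadjusted p under 0.05 and DESeq2 called 2, and of 18 genes of the TCA cycle and complex II 2 and 0. Mitochondrial chaperones and proteases gave 4 of 12 at an unadjusted p under 0.05, all higher, and 3 by DESeq2. NRF2 targets gave 6 of 19, all higher, and 3 by DESeq2. For MHC class I 1 of 10 genes had an unadjusted p under 0.05, for cholesterol efflux 2 of 13, and DESeq2 called none of either. Of 17 mitochondrial tRNA synthetases Tars2, for threonine, was called higher (0.64). Oligodendrocyte, astrocyte and red blood cell markers gave 0 by both tools and 0 at an unadjusted p under 0.05. Neuron markers gave 1 of 4 lower at an unadjusted p under 0.05 and by DESeq2.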

How the data were processed

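Microglia sorted from adult mouse brain were profiled by total RNA sequencing. The authors deposited a table of raw counts per gene for 64 libraries in 12 groups. The submitters' processing notes name the aligner STAR 2.6.1d and the quantifier Salmon 1.5.2, after read trimming software (Trim Galore 0.6.7) and demultiplexing software (bcl2fastq 2.20), and give GRCm38 as genome. The step that made the counts is not given in the sources used here. Totals of the 10 libraries ran from 11 to 15.6 M, and low counts limit the precision for weakly expressed genes. Genes were filtered with filterByExpr (minimum count 10, minimum total 15), scaled by TMM and tested with edgeR 4.0.16 in R 4.3.3 (quasi-likelihood F test, Benjamini-Hochberg adjustment, threshold 0.05). CPM are TMM-scaled. Standard errors are the size of the log2 fold change over the square root of F. Alternatives were DESeq2 1.42.0, other scaling and filters, a replicate block, a sex covariate, all 64 libraries in one fit, and each library left out.

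Named genes were Uqcrfs1, the 12 largest called changes in each direction with mean log2 CPM of at least 3 (leaving out Gm, AC and Rik symbols), up to 5 called members of each list by smallest p, Cx3cr1 and the transgenes. Other list members are named with their values. The samples, the 41 lists and the rule were chosen with earlier results of these data known. Library sets were formed by how much of each library fell on the transcripts Yam1 and Gm26917 (under 1% of counts in all 10 libraries) and from totals, with middle depth between 5.5 and 15 M. Replicate numbers were checked for pairing and are treated as names only. The tests were tried on simulated data.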

Additional observations from a re-analysis of the deposited data

Results flagged for a closer look

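In each group of 5 the library farthest from the rest was compared with the spread of its group, for 146 groups of 73 named genes. Of these 14 stood apart, where chance gives about 1 in 20 for unrelated groups. The genes share libraries and were chosen by their values, so the count carries no test. KO replicate 1, singled out in advance for a weak stress response, stood apart from the other 4 KO libraries for 7 genes. It had 349 CPM of Aldoa (others 609 to 686), 114 of Tpi1 (271 to 298), 128 of Pgam1 (221 to 248), 27 of Shmt2 (44.1 to 49.4) and 4020 of Ctsb (5680 to 6120), all below the other KO libraries. It had 22.7 CPM of Gimap6 (10.8 to 11.2) and 41.6 of Alox5 (26.7 to 30.9), both above them.

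The other 7 were WT libraries. WT replicate 5 had 5.39 CPM of Cst7 (others 9.49 to 10.9) and 10.5 CPM of Mthfd2 (21.1 to 23). WT replicate 2 had 160 CPM of Igfbp4 (99.3 to 110) and 23.5 CPM of Mcoln1 (33.5 to 34.7). WT replicate 1 had 122 CPM of Phgdh (104 to 108). WT replicate 3 had 15 CPM of Eef1e1 (11.3 to 12.3) and 0.327 CPM of Hist1h2ah, where the others were at 0 and any count would stand apart.

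For 5 genes within 20 Mb of Uqcrfs1 the log2 fold change of KO against WT differed from that of KO against Het in the middle-depth libraries by the edgeR test of the difference. The differences were -1.01 for Mcur1, -1.05 for Ero1lb, 0.67 for Gpr137b, 2.32 for Cage1 and 8.66 for Hist1h2ah, whose fitted value is no bound because most WT libraries were at 0. Reference genotype and library set cannot be told apart here.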

How the results depend on the processing

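The count of 256 called genes became 995 with DESeq2, 7 with a replicate block, 11 with libraries holding Y-linked counts only, 11 with sex as a covariate, 10 without KO and WT replicate 5, and 10 to 1122 when 1 library was left out. The cause was not tested. RLE scaling gave 247, no filter 220, robust fitting 270 and all 64 libraries in 1 fit 356. Without KO replicate 1 the count of 1122 became 1837 with DESeq2, 587 in a fit of all other libraries, 455 with a replicate block and 734 to 1311 with a further library left out, fits chosen after seeing the data. Same-numbered KO and WT libraries correlated at -0.159 to 0.28, and not every library correlated best with its own number, so the replicate block pairs numbers alone. The difference between naive and repopulation was called for 8 genes, 148 with DESeq2 and 4 to 22 with 1 library left out. The difference from KO against Het was called for 116, 283 with DESeq2 and 48 with the replicate block. No gene of the naming rule reversed its direction under any alternative run of the naive KO against WT comparison. Genes named outside that rule, and the other comparisons, were not checked for this.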
